A study of Mus musculus with 32 samples.

Results

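The 44 genes described here build the primary cilium and carry its cargo. They were taken by symbol from a list of intraflagellar transport (IFT), BBSome and transition zone genes, and all 44 of the 29511 genes in the count table were found, none with a symbol shared by another gene. By role they comprise 10 genes of the IFT-B complex, 6 of the IFT-A complex, 3 motor subunits, 10 genes of the BBSome and its helpers, 2 other ARL GTPases, 12 genes of the transition zone and *Cep164* of the distal appendages. RNA was sequenced from virgin female FVB/N mice, wildtype (WT) or with a *Clic4* knockout (KO) that removes the region around exon 2 in every host cell. Mouse mammary tumor cells of the 6DT1 line, which came from an MMTV-Myc mouse and carry intact *Clic4*, were implanted in the mammary fat pad of 6- to 8-week-old littermates of both genotypes. After 14 days, primary tumors were taken from 6 KO and 6 WT hosts and lungs from 6 KO and 6 WT tumor-bearing hosts, and control lungs came from 4 KO and 4 WT mice without a tumor. A tumor from a KO host is thus a mixture of *Clic4*-carrying cancer cells and KO stroma. Within a group, the labels name separate samples, and the study describes them as independent animals.

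A primary cilium is a single antenna on the surface of most cell types, built on the mother centriole once the cell leaves the cycle. IFT-B trains drawn by the kinesin subunits KIF3A and KIF3B carry building blocks to the tip, IFT-A trains with the dynein heavy chain DYNC2H1 bring material back, the BBSome loads membrane receptors onto the trains, and the transition zone gates the base. The multiciliated cells of the airway use the same machinery for their motile cilia, and dividing tumor cells often lack a cilium.

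Promoters of cilium genes are known to hold the X-box, the motif read by RFX transcription factors, so its occurrence was described first. In RefSeq promoters of GRCm38.p6, which span 250 bases before to 50 after each start site, 40 of the 44 genes had an entry. The motif was spelled GTTNCC, 0 to 3 further bases and GGNAAC, which reads the same on both strands. It was present for 6 of the 40 genes (15%), against 0.915% of the 26985 other genes in the same table. Among 35 other cilium genes with an entry, 3 held it (8.57%). Its half-site alone, GTTNCC or GGNAAC, was found for 34 of the 40 genes (85%) and for 48.8% of all genes. The 6 matches are shown with the X-box in capitals and the bases around it in lower case, on the strand of the gene.
*Bbs7* (chr3:36613477-36613530, minus strand): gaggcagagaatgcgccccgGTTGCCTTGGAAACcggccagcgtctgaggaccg
*Tctn3* (chr19:40612339-40612391, minus strand): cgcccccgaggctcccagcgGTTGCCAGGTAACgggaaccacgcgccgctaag
*Ift57* (chr16:49699214-49699266, plus strand): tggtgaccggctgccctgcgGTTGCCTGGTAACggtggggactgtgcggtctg
*Mks1* (chr11:87853171-87853214, plus strand): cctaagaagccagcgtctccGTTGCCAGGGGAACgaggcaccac
*Ahi1* (chr10:20952562-20952587, plus strand): gtctgaGTTACCTAGGCAACagcggc
*Tctn1* (chr5:122264411-122264430, minus strand): gtgactGTTGCCCGGGCAAC
The match lay 108 to 121 bases before the start site in *Bbs7*, 128 to 140 in *Tctn3*, 48 to 60 in *Ift57* and 11 to 24 in *Mks1*. In *Ahi1* and *Tctn1* it lay after the annotated start. Of the 6, 4 belong to the transition zone, 1 to the BBSome and 1 to IFT-B.

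For *Wdr19* and *Bbs4*, on which several of the comparisons turn, the 150 bases before the start site are given without capitals, because no X-box as spelled here lies in them.
*Wdr19* (chr5:65199546-65199695, plus strand): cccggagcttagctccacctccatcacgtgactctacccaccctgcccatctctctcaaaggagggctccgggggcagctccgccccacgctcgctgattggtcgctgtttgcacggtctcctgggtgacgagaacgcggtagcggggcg
*Bbs4* (chr9:59353509-59353658, minus strand): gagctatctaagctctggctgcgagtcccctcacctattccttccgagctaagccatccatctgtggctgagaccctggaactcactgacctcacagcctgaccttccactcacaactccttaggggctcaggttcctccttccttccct

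Levels are first given as FPKM, read counts scaled by transcript length and library, so that genes can be compared with each other. In control WT lungs, the median over the 44 genes was 6.26 FPKM. Of the IFT-B genes, which form the train toward the tip, *Ift20* stood at 32.2 ± 5.33 FPKM in control WT lungs (SD, n = 4), *Ift46* at 32 ± 4.38 and *Ift172* at 29.1 ± 1.91. These 3 were the highest of all 44 genes there, and their SDs overlapped. The other IFT-B genes were lower, with *Ift80* at 11.4 ± 1.69, *Ift52* at 10.6 ± 1.34, *Ift81* at 9.15 ± 1.62, *Ift57* at 8.82 ± 1.96, *Ift88* at 7.79 ± 1, *Ift27* at 7.29 ± 1.69 and *Ift74* at 6.39 ± 1.18 FPKM. Of the IFT-A genes, which serve the return path, *Ift43* stood at 21.6 ± 1.74 FPKM, followed by *Ift140* at 6.56 ± 0.675, *Ift122* at 5.42 ± 0.468, *Wdr19* at 5.29 ± 0.326, *Wdr35* at 5.25 ± 0.655 and *Ttc21b* at 4.86 ± 0.433. Below *Ift43*, the IFT-A genes lay close together, between 4.86 and 6.56 FPKM. The motor subunits had similar levels, at 8.7 ± 0.364 FPKM for *Kif3b*, 6.72 ± 0.769 for *Kif3a* and 6.12 ± 0.249 for *Dync2h1*.

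Among the BBSome subunits, *Bbs9* led at 12.4 ± 1.46 FPKM in control WT lungs (SD, n = 4), ahead of *Bbs2* at 7.92 ± 2.99, *Bbs7* at 5.71 ± 1.87, *Bbs4* at 5.11 ± 0.767, *Bbs5* at 3.89 ± 0.64, *Ttc8* at 3.52 ± 0.418 and *Bbs1* at 1.96 ± 0.268. The subunits of one complex thus spanned a wide range of RNA levels. *Arl6*, the GTPase that recruits the BBSome to membranes, stood at 3.47 ± 0.769, and *Bbs12* and *Bbs10*, chaperonin-like genes needed for its assembly, at 1.63 ± 0.35 and 1.37 ± 0.195. *Arl3*, a GTPase that releases lipid-modified cargo in the cilium, stood at 15.4 ± 2.12 and *Arl13b*, a GTPase of the ciliary membrane, at 10.5 ± 0.854. In the transition zone, *B9d1* at 15.5 ± 2.91, *Tctn1* at 7.48 ± 1.23, *Tmem216* at 6.92 ± 1.07, *Tctn3* at 5.59 ± 0.438, *Cep290* at 4.12 ± 0.331, *Tmem67* at 4.04 ± 0.642 and *Ahi1* at 3.46 ± 0.373 FPKM were the higher genes. The lower ones were *Tctn2* at 3.24 ± 0.534, *Rpgrip1l* at 2.35 ± 0.0189, *Mks1* at 2.21 ± 0.752, *B9d2* at 1.84 ± 0.749 and *Nphp4* at 0.853 ± 0.617. *Cep164*, which docks the mother centriole to the membrane, stood at 7.22 ± 1.64. *Nphp4* had 1 to 20 counts per library and was the one gene that could not be tested in tumors.

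**Figure D1:**
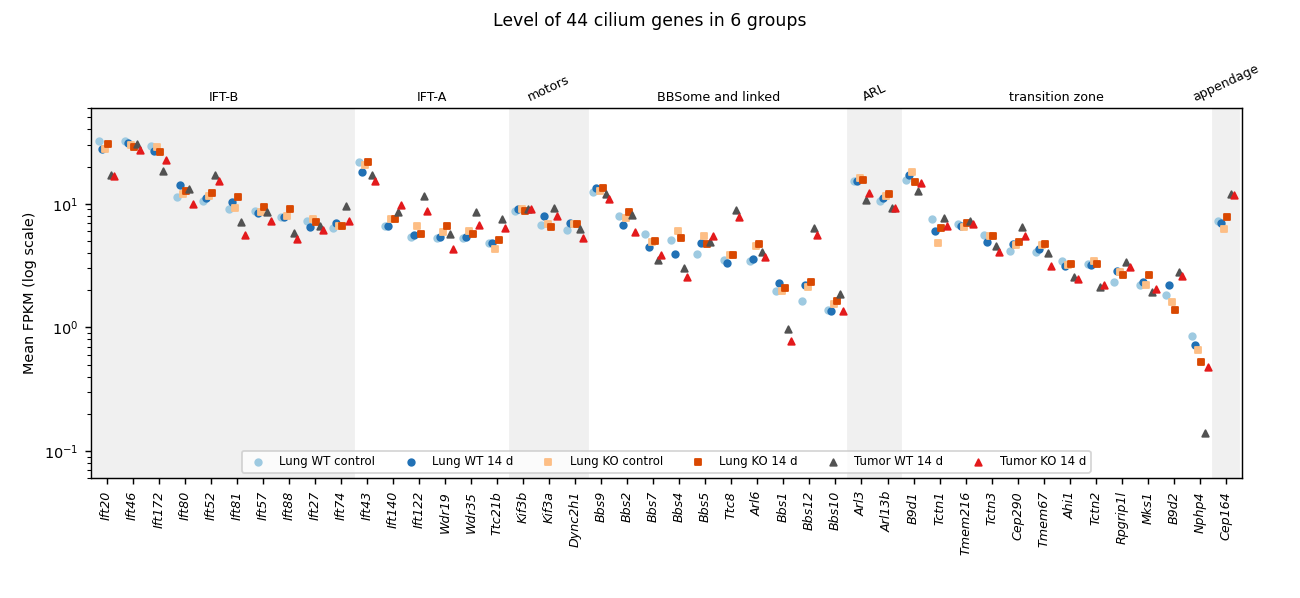
Mean FPKM (vertical log axis) of each of the 44 genes, ordered by role and by level in control WT lungs, with 1 symbol for each of the 6 groups (4 lungs per control group, 6 samples per other group). *Ift20*, *Ift46* and *Ift172* are near the top and *Nphp4* is the lowest in each group; within lungs the symbols of a gene lie close together.

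Samples were compared on CPM, counts scaled to library size, after TMM normalization by the bulk of the genes. Libraries held 4446323 to 8318711 counts. *Clic4* checked the labels, at 206 to 280 normalized CPM in the 10 KO lungs and at 590 to 857 in the 10 WT lungs. Reads outside the removed region are still counted in KO mice. In tumors the ranges were 245 to 281 in KO and 293 to 321 in WT hosts. The tissues matched their labels, since *Sftpc* of alveolar type 2 cells was at 4118 or more in every lung and at most at 0.475 in every tumor. Summed over 20 markers of multiciliated cells, lungs stood at 488 to 607 normalized CPM and tumors at 12.8 to 24.2, with 5 of the 20 at 0 counts throughout the WT tumors and 7 in the KO tumors. *Foxj1*, the master factor of motile cilia, was at 22.2 to 40.1 in lungs and 0 to 0.999 in tumors. In such bulk samples, fewer cells of a type and less RNA per cell cannot be told apart.

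The variation of the 44 genes across the 6 groups was described by group means. The highest group mean of a gene was 1.45 times its lowest in the median gene, and 25 genes stayed under 1.5 times. Among the 4 lung groups the median ratio was 1.15, and 41 genes stayed under 1.5. *Tmem216* and *Kif3b* varied least over the 6 groups, both at 1.08 times, and *Nphp4* at 5.15, *Bbs12* at 4.04 and *Ttc8* at 3 times varied most. Within groups, the median coefficient of variation over the genes was 10.1 to 15.3%.

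Whether host *Clic4* changes cilium RNA in the primary tumor was asked first. No gene of the 43 tested passed an FDR of 0.05 between tumors from KO and WT hosts by edgeR's quasi-likelihood test, against 2.51% of all 13830 genes tested. At an unadjusted p under 0.05 there were 6 (14%, against 15.5% of all genes), and DESeq2 called 1, *Wdr19*. On the log2 scale, 32 of the 43 were lower in tumors from KO hosts, with a median difference of -0.125 (-0.010 over all genes, of which 52.3% were lower). All differences were small, from -0.41 for *Bbs10* to 0.22 for *Arl3*, with SEs of 0.07 to 0.30.

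*Wdr19*, also called IFT144 and a core subunit of IFT-A, had the smallest p. It was at 18.7, 20.3 at the median and 25.6 normalized CPM in the 6 tumors from KO hosts and at 24.2, 27 and 32 in the 6 from WT hosts. 1 KO tumor, the highest, reached into the WT range. The log2 difference was -0.37 (SE 0.10, FDR 0.0571), and the FDR was 0.0321 by DESeq2. *Ift122*, another core IFT-A subunit, ran from 25.8 over a median of 27.8 to 31.6 in KO and from 29.8 over 34.4 to 36.1 in WT hosts, again with 1 KO tumor inside the WT range. Its log2 difference was -0.28 (SE 0.08, FDR 0.0644), and the FDR was 0.0443 with offsets for GC content. Both passed 0.05 without replicate 4 of the KO tumors (*Wdr19* at -0.43, FDR 0.0251, and *Ift122* at -0.32, FDR 0.0396) or without replicate 6 of the WT tumors (*Wdr19* at -0.41, FDR 0.0434, and *Ift122* at -0.32, FDR 0.0387). *Dync2h1*, the motor that draws IFT-A trains, came next at -0.25 (SE 0.08, FDR 0.126), with 49.9 to 67 normalized CPM in KO and 66.3 to 76.3 in WT hosts.

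By role, all 6 IFT-A genes, 9 of 10 BBSome genes, 8 of 10 IFT-B genes, 2 of 3 motors and 7 of 11 transition zone genes had values below 0, with none called by edgeR and *Wdr19* called by DESeq2. Both ARL genes and *Cep164* had values above 0. *Ift80* at -0.26 (FDR 0.182), *Tctn1* at -0.28 (FDR 0.231) and *Bbs10* at -0.41 (FDR 0.275) completed the 6 genes with p under 0.05. In the other direction, *Ift172* was at 0.16 (FDR 0.336).

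**Figure D2:**
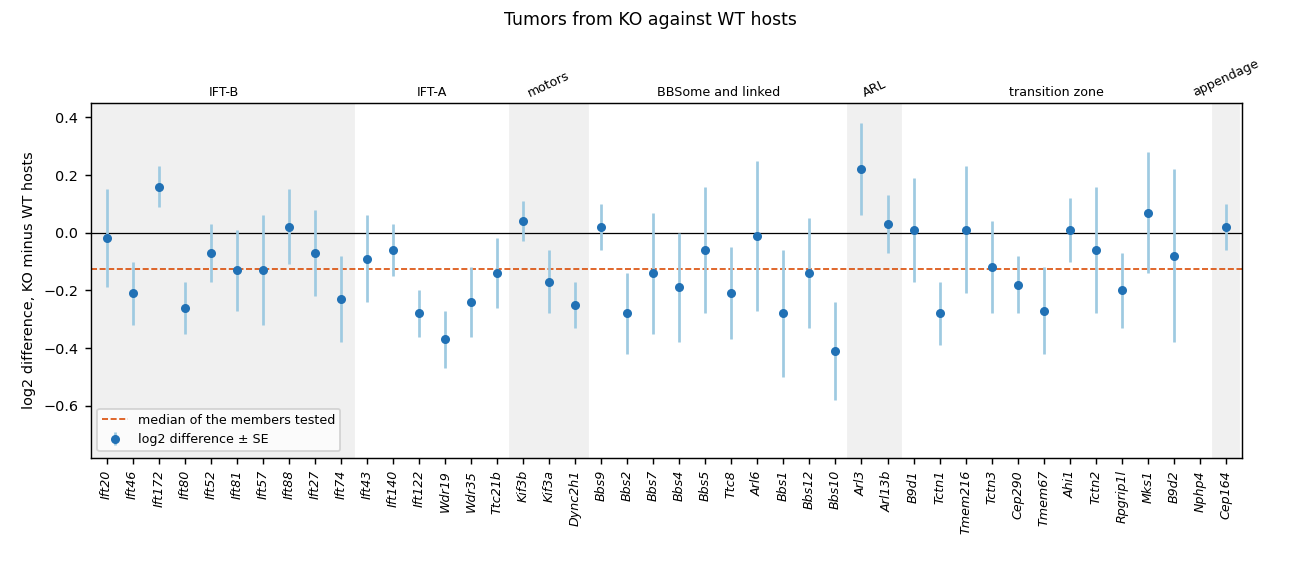
Log2 difference between tumors from 6 KO and 6 WT hosts (vertical axis) for the 43 genes tested, ordered by role; points are edgeR estimates, bars are SEs and the dashed line is their median of -0.125. Most points lie under 0, and *Nphp4* has none because it was not tested.

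Other parts of the pathway were read from lists. Of 36 further cilium genes tested, 1 passed in tumors, *Wdr60*, an intermediate chain of the IFT-A dynein, which was lower in KO hosts, at -0.33 (SE 0.07, FDR 0.0255) at 31.4 to 38.1 against 37.6 to 47.3 normalized CPM. Of these 36 genes, 29 were below 0 (80.6%), with a median of -0.142. Of 5 cilium transcription factors tested, *Rfx7* was lower, at -0.29 (SE 0.07, FDR 0.044), while *Rfx2* at -0.31 and *Rfx3* at -0.20 did not pass. None of 9 genes of cilium disassembly and none of 9 Hedgehog genes passed (edgeR; 2 and 1 at an unadjusted p under 0.05), with *Gli2*, a Hedgehog transcription factor, at -0.54 (SE 0.24, FDR 0.299). Below 0 were 7 of the 9 disassembly genes and all 9 Hedgehog genes, with medians of -0.139 and -0.163. The tumors also differed in cell markers. All 10 leukocyte markers tested were above 0 and *Nkg7*, of cytotoxic lymphocytes, passed at 1.35 (SE 0.26, FDR 0.0093), with the list's sum at 841 to 1581 normalized CPM in KO and 492 to 1094 in WT tumors. All 10 proliferation markers were below 0, with none called and sums of 1114 to 1338 and 1098 to 1554. The 6 epithelial markers summed to 485 to 567 in KO and 525 to 683 in WT tumors, the 9 fibroblast markers to 4719 to 10851 and 4355 to 9480, the 6 endothelial ones to 103 to 196 and 123 to 154, and the 4 adipocyte ones to 33.8 to 154 and 29.7 to 61.6. The part of these lists in the differences above was not tested.

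The lung comparisons asked what a distant tumor and the host genotype do to the same genes, with calls at an FDR of 0.25. In WT lungs, 1 of 44 genes changed 14 days after implantation (edgeR), against 2.33% of 16029 genes. This was *Bbs4*, a BBSome subunit that binds centriolar satellites. It was at 11.3, 12.1, 10.1 and 14 normalized CPM in the 4 control WT lungs and at 7.06, a median of 9.13 and 10.2 in the 6 at 14 days. The groups overlapped at their edge, near the lowest control. *Bbs4* was lower, at -0.39 (SE 0.12, FDR 0.209), and this call was lost when only the compared groups were fitted (FDR 0.318), with no filter on low counts (FDR 0.346), and in 7 of the 10 fits that left out 1 lung, where the FDR reached 0.374. *Cep290*, which anchors the transition zone to the microtubules, came next at 0.19 (SE 0.07, FDR 0.336) and ran from 27.8 to 34.8 in controls and from 31.4 to 38.9 at 14 days. Without replicate 3 of the 14-day WT lungs its FDR was 0.222.

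In KO lungs, none of the 44 genes passed between 14 days and control (edgeR), against 1.05% of all genes, and 1 had an unadjusted p under 0.05. DESeq2 called none of the 30 to which it gave an adjusted p. *Tctn1* was at 0.26 (SE 0.11, FDR 0.484), *Cep164* at 0.23 (SE 0.12, FDR 0.598) and *Bbs4* at -0.18 (SE 0.11, FDR 0.702). The difference between the 2 tumor responses was tested as an interaction, which no gene passed (edgeR), against 0.0499% of all genes; 1 had an unadjusted p under 0.05 and DESeq2 called none of 16. *Tctn1* had the smallest p, at 0.42 (SE 0.15, FDR 0.438), followed by *Dync2h1* at -0.23 (FDR 0.585) and *Nphp4* at 0.89 (FDR 0.592).

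Between genotypes at 14 days, *Bbs4* was the 1 gene of 44 that passed, against 0.861% of all genes. It was at 10.7, a median of 12.1 and 13.7 normalized CPM in the 6 KO lungs and at 7.06, 9.13 and 10.2 in the 6 WT lungs, so the groups did not overlap. *Bbs4* was higher in KO lungs, at 0.43 (SE 0.11, FDR 0.129), and its FDR was 0.272 when only these groups were fitted and 0.253 to 0.297 without any of 5 single lungs (replicates 5 and 6 of KO, 1, 2 and 3 of WT). The comparison shares its 6 WT lungs with the one of WT lungs over time, so it does not count as a separate observation of their low level. In control lungs, *Bbs4* was at 13 to 15.8 in KO and 10.1 to 14 in WT mice. *Kif3a*, a subunit of the kinesin that drives trains to the tip, followed at -0.26 (SE 0.09, FDR 0.373), from 13.4 to 18.5 in KO and 17.7 to 21.6 in WT lungs. *Wdr19* at 0.23 (SE 0.08, FDR 0.424) and *Ift122* at 0.23 (SE 0.09, FDR 0.444) were higher in KO lungs at an unadjusted p under 0.05 but did not pass.

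In control lungs, *Tctn1*, a tectonic protein of the transition zone, was the 1 gene of 44 that passed between genotypes, against 0.973% of all genes. It was at 22.3, 19, 17.2 and 16.3 normalized CPM in KO and at 25, 23.2, 23.8 and 28.6 in WT controls, without overlap. *Tctn1* was lower in KO lungs, at -0.43 (SE 0.12, FDR 0.232). The FDR was 0.336 with no filter, 0.266 with a replicate block and 0.616 with GC offsets, which gave -0.32, and the call was lost in 6 of the 8 fits without 1 control lung, with an FDR of up to 0.472. At 14 days the KO lungs were at 19.5 to 25.9 and the WT lungs at 19.6 to 26.6, where *Tctn1* did not pass. *Dync2h1* was next in controls at 0.20 (SE 0.09, FDR 0.382), from 79 to 85.2 in KO and 65.1 to 75.1 in WT lungs.

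*Bbs4* and *Tctn1* are 2 of 9 genes with exons that overlap another gene. *Bbs4* overlaps *Adpgk* and *Tctn1* overlaps *Hvcn1* and *Gm15481*, each on the opposite strand. The libraries were stranded, but whether the counting used strand is not given in the sources used here. *Adpgk* was at 0.09 (SE 0.09) in WT lungs over time and at -0.09 (SE 0.08) between genotypes at 14 days, and *Hvcn1* was at -0.24 (SE 0.22) between control lungs. These genes were looked up after the values of *Bbs4* and *Tctn1* were seen.

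**Figure D3:**
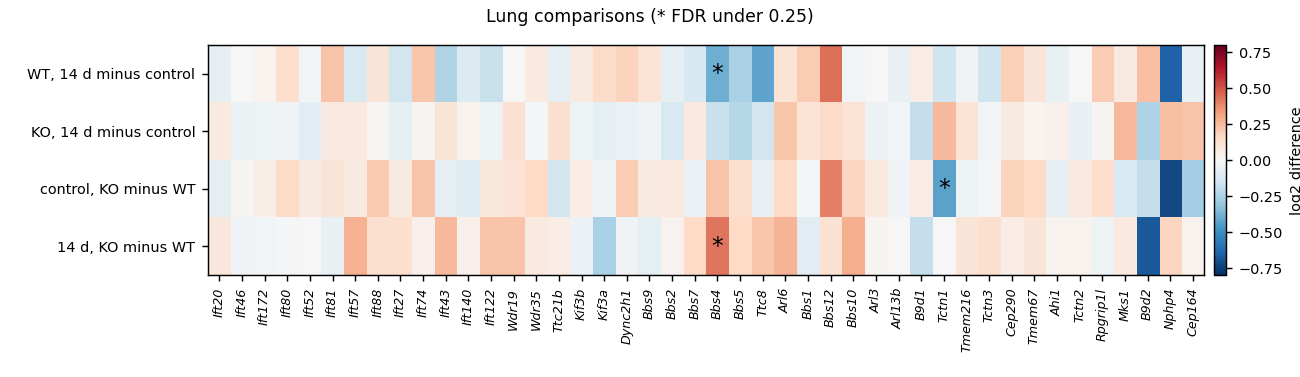
Log2 difference (color) of the 44 genes (columns, by role) in 4 lung comparisons (rows), with an asterisk where the FDR was under 0.25. The asterisks mark *Bbs4* in WT lungs over time and between genotypes at 14 days, and *Tctn1* between control lungs.

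In lungs, few genes of the lists around the pathway were called. Of 39 further cilium genes, *Arl2bp* passed between genotypes at 14 days, at 0.20 (SE 0.06, FDR 0.215). None passed in KO lungs over time, between control lungs or in the lung interaction (edgeR; 0 to 2 at an unadjusted p under 0.05). No gene of cilium disassembly (8 tested), no cilium transcription factor (6 tested) and no Hedgehog gene (14 tested) passed in any of them (0 to 4 per list at an unadjusted p under 0.05). Among the transcription factors, *Rfx2* was at -0.44 (SE 0.14, FDR 0.286), *Rfx7* at -0.22 (FDR 0.335) and *Rfx1* at -0.53 (FDR 0.335) in KO against WT control lungs. The 20 markers of multiciliated cells summed to 499 to 574 normalized CPM in control WT, 488 to 554 in 14-day WT, 534 to 607 in control KO and 510 to 573 in 14-day KO lungs. Of the 19 tested, *Cfap126* was called higher in WT lungs over time, at 0.54 (SE 0.15, FDR 0.178). There 11 were above 0 and 8 below, with a median of 0.104, and *Tppp3* was at -0.24 (SE 0.08, FDR 0.262) and *Foxj1* at -0.31 (SE 0.14, FDR 0.393). The axonemal dynein gene *Dnah5* was higher in KO than in WT control lungs, at 0.28 (SE 0.08, FDR 0.224). In that comparison 13 of the 19 were above 0 and 6 below, 5 had an unadjusted p under 0.05 and the median was 0.162. In WT lungs over time, the neutrophil gene *S100a8* of the leukocyte list was higher, at 2.02 (SE 0.54, FDR 0.164), as was *S100a9*, at 2.05 (SE 0.56, FDR 0.169). Of the 11 leukocyte markers, 5 were above 0 and 6 below there, with a median of -0.020, and *Cd79a* was at -0.83 (SE 0.32, FDR 0.322). In KO lungs over time, *S100a8* was at 1.67 (SE 0.54, FDR 0.304) and *S100a9* at 1.68 (SE 0.55, FDR 0.304), neither called. There 8 of the 11 were above 0 and 3 below, with a median of 0.452. The collagen gene *Col1a1* was lower in WT lungs over time, at -0.73 (SE 0.20, FDR 0.161), where 7 of the 9 fibroblast markers were below 0 and 2 above. *Col1a1* was higher in KO than in WT lungs at 14 days, at 0.65 (SE 0.18, FDR 0.205). There 5 of the 9 were above 0 and 4 below, with a median of 0.032. The surfactant gene *Sftpb* was lower in WT lungs over time, at -0.26 (SE 0.08, FDR 0.209), and 1 of 10 proliferation markers was called lower. In KO against WT control lungs, all 10 proliferation markers were below 0 with 1 called, and their sums were 137 to 159 and 129 to 285 normalized CPM. Of 11 leukocyte markers there, 7 were below 0 and 4 above, with none called and a median of -0.236. The smallest p fell on *Cd79a* at -1.11 (SE 0.37, FDR 0.282), *Nkg7* at -1.06 (SE 0.38, FDR 0.306) and *Cd3e* at -0.69 (SE 0.25, FDR 0.328). The sum of the leukocyte list was 2141 to 3068 normalized CPM in KO and 1906 to 2853 in WT control lungs, with means of 2704 and 2430. The part of these lists in the values of *Bbs4* and *Tctn1* was not tested. The 5 club cell markers stood at 6583 to 8426 in all lungs and 0.159 to 2.66 in tumors, and those of alveolar type 2 cells at 8237 to 11616 and 77.6 to 92.

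Primary tumors and 14-day lungs were then compared within each host genotype, in a fit of all 32 samples without pairing by animal. In WT hosts, 16 of the 44 genes were higher in the tumor (37.5% of 16825 genes tested) and 10 were lower (38.4%). The 5 members past a 2-fold limit were *Bbs12*, *Ttc8*, *Ift122*, *Bbs1* and *Nphp4*. In KO hosts, 11 were higher (37.2%) and 15 were lower (37.2%). The cilium genes called made up 36.4% higher and 22.7% lower in WT hosts and 25% higher and 34.1% lower in KO hosts, shares near or under the background. The 20 markers of multiciliated cells gave the contrast, since all 19 tested were lower in tumors in both genotypes.

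In WT hosts, *Ift122* rose by 1.06 (SE 0.08, FDR 1.19e-13), *Ttc21b* by 0.68, *Wdr35* by 0.56, *Ift140* by 0.48 and *Wdr19* by 0.27, which is 5 of 6 IFT-A genes, and *Ift43* did not pass. *Ift122* was at 14.1 to 17.7 normalized CPM in the 6 WT lungs, with a median of 17, and at 29.8 to 36.1 in the 6 WT tumors, with a median of 34.4, so every tumor was well above every lung. Of the IFT-B genes, *Ift52* at 0.60 and *Ift74* at 0.48 were higher, while *Ift172* at -0.57, *Ift20* at -0.74, *Ift81* at -0.64 and *Ift88* at -0.53 were lower. *Ift27*, *Ift46*, *Ift57* and *Ift80* passed in neither genotype. In KO hosts, *Ift172* at -0.40, *Ift20* at -0.85, *Ift81* at -0.72 and *Ift88* at -0.65 were lower too, and *Ift52* at 0.52 was higher. There, 4 IFT-A genes were higher, *Ift122* at 0.53, *Ttc21b* at 0.47, *Ift140* at 0.37 and *Wdr35* at 0.23, and 2 were lower, *Wdr19* at -0.34 and *Ift43* at -0.40. *Wdr35* (FDR 0.0392) lost its call in 4 of the 6 other fits and in 7 of the 12 fits without 1 sample, with an FDR of up to 0.138 over these fits.

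The BBSome held the largest differences in both directions among genes with over 10 counts in every library. *Ttc8*, also called BBS8, rose in WT tumors by 1.61 (SE 0.15, FDR 4.77e-11), from 3.74 to 5.59 normalized CPM in lungs to 9.07 to 16.5 in tumors. In KO hosts it rose by 1.16 (SE 0.15, FDR 5.01e-08), from 4.45 to 7.58 in lungs to 8.86 to 14 in tumors. *Bbs12*, the chaperonin-like gene, rose by 1.62 in WT and 1.34 in KO hosts. Its exons overlap *Gm43439* on the same strand and *Cetn4* on the other, so reads of these genes may be split in the counting. *Bbs1*, the subunit that meets ARL6, fell, at -1.14 (SE 0.16) in WT and -1.33 (SE 0.17, FDR 1.68e-08) in KO hosts, and *Bbs9* did so at -0.68 and -0.60. *Bbs1* was at 8.69 to 13.2 in KO lungs and 2.66 to 5.8 in KO tumors, without overlap. *Bbs2* at 0.45 and *Bbs10* at 0.51 were higher in WT tumors, and *Bbs4* at -0.94 and *Bbs7* at -0.62 were lower in KO tumors. *Bbs5* and *Arl6* passed in neither.

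*Cep164* was higher in tumors by 0.91 (SE 0.09, FDR 2.32e-10) in WT and 0.88 (SE 0.09, FDR 5.13e-10) in KO hosts. It was at 24.6 to 34.9 normalized CPM in WT lungs and 48 to 64 in WT tumors, and at 27.4 to 38 and 51.8 to 60 in KO hosts. In the transition zone, *Cep290* at 0.51 and 0.26 was higher in both genotypes, and *Nphp4* at -1.56 and -1.81, *Ahi1* at -0.24 and -0.28 and *Tctn2* at -0.46 and -0.57 were lower. *Nphp4* rested on 1 to 6 counts per tumor. *Rpgrip1l* at 0.39 and *Tctn1* at 0.30 were higher in WT tumors, and in KO tumors *B9d2* was higher at 1.00 and *Tmem67* lower at -0.45. *B9d2* rested on 4 to 7 counts per KO lung and 7 to 15 per KO tumor. Its groups overlapped, at 0.615 to 1.53 and 1.27 to 3.46 normalized CPM. *B9d1*, *Mks1*, *Tctn3* and *Tmem216* passed in neither. Of the motors, *Kif3a* was higher at 0.22 and 0.29, *Dync2h1* was lower in KO tumors at -0.38 and *Kif3b* passed in neither. *Arl3* was lower in WT tumors at -0.44 and *Arl13b* passed in neither. *Kif3a* in WT hosts lost its call in 4 of 6 other fits and 7 of 12 fits without 1 sample, *Ahi1* and *Tctn2* there each in 1 of 6 other fits and 5 of 12, *Cep290* in KO hosts in 1 of the other fits and *Ahi1* there in 1 of 12.

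Of the 26 genes called in each genotype, 19 were called in the same direction in both (73.1% of either list), 10 higher and 9 lower in tumors. Over all genes with a unique symbol, the same share was 89% of the WT list and 90.9% of the KO list. 1 gene, *Wdr19*, was called in opposite directions, and 12 were called in neither. The WT and KO comparisons share no samples.

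**Figure D4:**
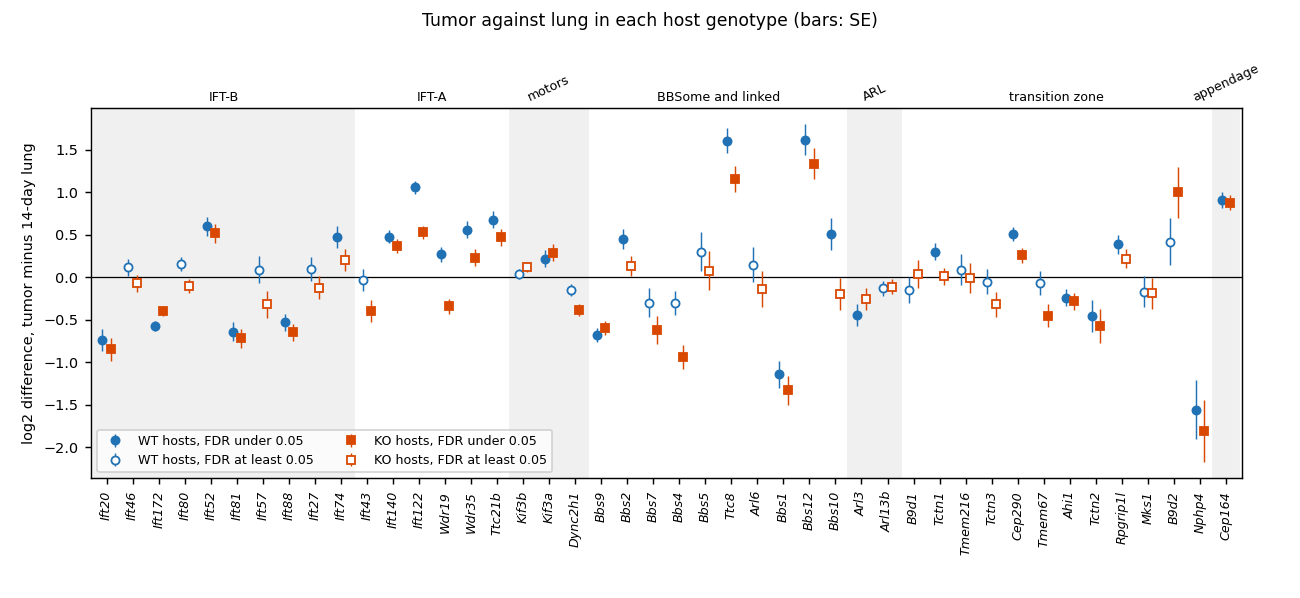
Log2 difference between tumor and 14-day lung (vertical axis) of the 44 genes in WT hosts (blue circles) and KO hosts (orange squares), 6 samples per group; filled symbols have an FDR under 0.05 and bars are SEs. The IFT-A genes other than *Ift43* lie above 0 in WT hosts, and *Wdr19* is filled on both sides of 0.

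The lists around the pathway are read against the 75.9% of all genes called in WT and 74.4% in KO hosts. All 9 genes of cilium disassembly were called in both genotypes, 7 higher and 2 lower in tumors. *Kif24*, a centriolar kinesin that blocks cilium assembly, was higher by 1.90 (SE 0.07) in WT and 1.84 (SE 0.08) in KO hosts, and the mitotic kinase *Plk1* by 4.07 (SE 0.21) and 3.83 (SE 0.21), while the scaffold *Nedd9* was lower, at -1.81 in both. All 10 proliferation markers were higher in tumors, at sums of 1098 to 1554 normalized CPM against 118 to 285 in lungs. Of 14 Hedgehog genes, 5 were higher and 6 lower in WT hosts and 4 higher and 8 lower in KO hosts. *Smo*, the transducer that acts in the cilium, was higher by 1.47 (SE 0.10) and 1.16 (SE 0.10). Of 39 further cilium genes, 15 were higher and 14 lower in WT and 9 higher and 17 lower in KO hosts. *Wdr60* was higher by 1.48 (SE 0.08) and 1.08 (SE 0.08), and *Traf3ip1*, or IFT54 of IFT-B, was lower, at -1.37 (SE 0.08) and -1.66 (SE 0.08). Of 6 cilium transcription factors, 3 were higher and 3 lower in both genotypes, *Rfx7* being higher by 0.93 and 0.64 and *Rfx3* lower, at -0.35 and -0.62.

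Whether the tumor-to-lung difference itself depended on host genotype was tested as an interaction, a test added after the values were seen. It uses the same samples as the tissue comparisons and is not separate from them. 2 of the 44 genes passed an FDR of 0.05 (edgeR), against 1.06% of 16825 genes, and both belong to IFT-A. For *Wdr19*, the tumor-to-lung difference was 0.27 in WT and -0.34 in KO hosts, which gave an interaction of -0.62 on the log2 scale (SE 0.12, FDR 0.00914). For *Ift122*, it was 1.06 in WT and 0.53 in KO hosts, an interaction of -0.53 (SE 0.11, FDR 0.0132). In *Wdr19*, WT hosts were at a median of 22.3 normalized CPM in lungs and 27 in tumors, and KO hosts at 27.4 in lungs and 20.3 in tumors. In *Ift122*, the medians were 17 and 34.4 in WT and 18.9 and 27.8 in KO hosts. In both genes the median was lower in KO than in WT tumors and higher in KO than in WT lungs, and neither passed by edgeR in tumors or in lungs alone (by DESeq2, *Wdr19* passed in tumors, and with GC offsets *Ift122* did). Both stayed under 0.05 in each of the 24 fits that left out 1 sample, with values of -0.69 to -0.57 for *Wdr19* and -0.57 to -0.48 for *Ift122*.

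Of the 44 genes, 36 had an interaction value below 0, with a median of -0.209 (-0.012 over all genes, 52% below 0). All 6 IFT-A genes, 9 of 10 BBSome genes, 9 of 10 IFT-B genes and 10 of 12 transition zone genes were below 0, as was *Cep164*, while 2 of 3 motors and both ARL genes were above 0. Next after *Wdr19* and *Ift122* came *Bbs4* at -0.64 (SE 0.20, FDR 0.131), *Bbs10* at -0.71 (SE 0.26, FDR 0.224) and *Wdr35* at -0.33 (SE 0.14, FDR 0.309). None of the 39 further cilium genes passed (edgeR; 9 at an unadjusted p under 0.05), where *Arl2bp* was at -0.40 (SE 0.11, FDR 0.0738) and *Wdr60* at -0.40 (SE 0.11, FDR 0.0752). Of these 39 genes, 29 were below 0, with a median of -0.149. *Rfx7* was at -0.30 (SE 0.10, FDR 0.149), *Ccp110*, which caps the centriole, at -0.19 (FDR 0.507) and *Gli2* at -0.79 (FDR 0.266). Of the 11 leukocyte markers, 10 were above 0, with a median of 0.483 and none called. All 4 adipocyte markers were above 0, with a median of 1.204, none called and 3 at an unadjusted p under 0.05, among them *Cidec* at 1.09 (SE 0.35, FDR 0.14). Of the 10 proliferation markers, 8 were below 0. The part of these lists in the values of *Wdr19* and *Ift122* was not tested.

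**Figure D5:**
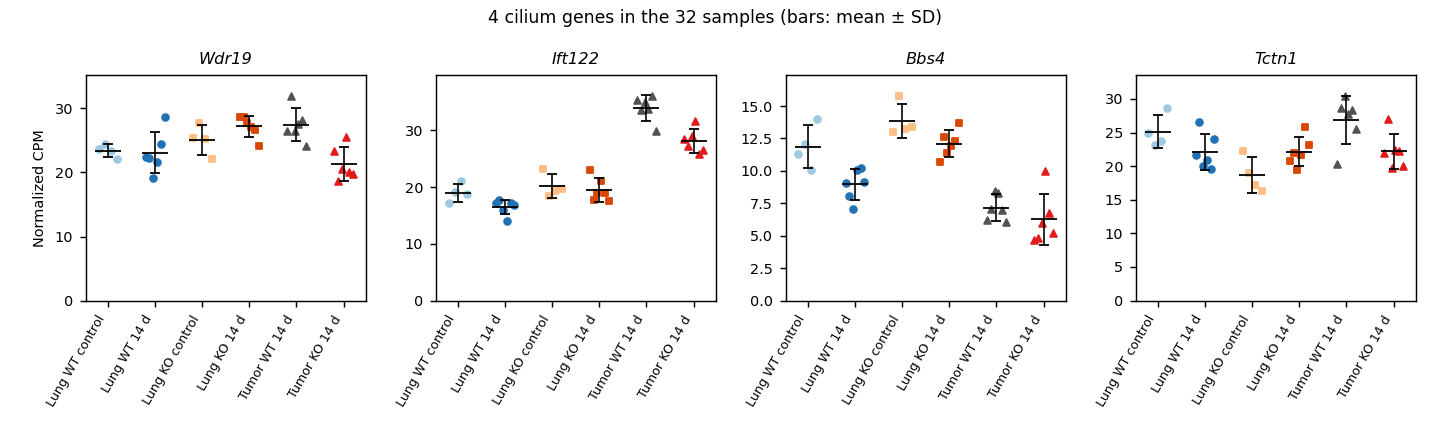
Normalized CPM (vertical axis, from 0) of *Wdr19*, *Ift122*, *Bbs4* and *Tctn1* in each of the 32 samples, by group; horizontal marks are means and bars are SDs (n = 4 for control lungs, n = 6 for the others). *Ift122* is higher in every tumor than in every lung, and *Wdr19* is higher in 5 of the 6 KO lungs at 14 days than in any KO tumor.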

How the data were processed

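Total RNA of snap-frozen tissue was made into stranded mRNA libraries and sequenced paired-end. The authors aligned the reads to GRCm38 (mm10) with STAR and quantified genes with RSEM, and deposited 2 tables, expected counts rounded and not normalized, and FPKM, scaled by transcript length and library. RSEM divides reads between similar genes. Between 8.33 and 14.1% of a library's counts fell on *Rn7sk*, *Rn7s1* and *Rn7s2*, so levels between samples are given as TMM-normalized CPM and FPKM only orders genes.

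The expected counts were tested with edgeR 4.0.16 (quasi-likelihood F test, TMM, filterByExpr, one mean per group, Benjamini-Hochberg FDR over all genes tested) in R 4.3.3, in one fit of 12 tumors, one of 20 lungs and one of all 32 samples. SE is the log2 difference over the square root of F. Calls used an FDR of 0.05, or 0.25 in lungs. The genes and lists were chosen with earlier results of these data known. Every member is named with its level. The members called are named with values, or the 3 with the smallest p where none was called, and, in comparisons with calls, the values of every sample or their range are given for the 2 with the smallest p. Of lists, at most 3 genes per comparison are named. The list of further cilium genes in WT lungs over time is not reported here.

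Alternatives were DESeq2 1.42.0, RLE size factors, no filter, a replicate block, only the compared groups, a fold limit, GC offsets (loess span 0.5) and each sample left out. No source says that equal replicate numbers pair animals. The tissue by genotype interaction was added after seeing the data. The tests were also run on simulated counts, made with the mean levels, spread and library sizes of these data. Of genes changed 1.5-fold there, 64.4% were called between tumors by host genotype and 60.6% in WT lungs over time. Between WT tumors and lungs 57.7% were called. Python 3.11.15 with pandas 2.3.3 and matplotlib 3.10.9 drew the figures. P-values set a difference between groups against the spread between samples within the groups of the fit.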

Additional observations from a re-analysis of the deposited data

Results flagged for a closer look

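The difference between tumor and lung depended on host genotype, by a test of the difference itself, for *Wdr19* at -0.62 (FDR 0.00914) and *Ift122* at -0.53 (FDR 0.0132). Of the 11 genes whose samples were looked at in 6 groups each, 4 had a sample far from its group by Dixon's ratio, where chance flags about 1 in 20 groups. These were *Bbs4* in control KO lung replicate 2 (15.8 normalized CPM against 13 to 13.4 in the other 3), *Cep290* in 14-day KO lung replicate 6 (34.1 against 38 to 39), *Tctn1* in KO tumor replicate 2 (27 against 19.7 to 22.4) and *Cep164* in 14-day KO lung replicate 4 (38 against 27.4 to 30.7).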

How the results depend on the processing

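Counts of members called are given here. In tumors by host genotype, the count of 0 became 1 with DESeq2 and 1 with GC offsets, and it was 0 to 2 with 1 tumor left out. In WT lungs over time, the count of 1 became 0 with no filter, 0 with only the compared groups and 0 with a 1.5-fold limit, and was 0 to 2 with 1 lung left out. Between genotypes at 14 days, 1 became 0 with only the compared groups and 0 with the fold limit, and was 0 to 2 with 1 lung left out. In control lungs by genotype, 1 became 0 with no filter, 0 with the replicate block, 0 with GC offsets, 0 with the fold limit and 2 with only the compared groups, and was 0 to 1 with 1 lung left out. There DESeq2 gave an adjusted p to 3 of the 44 and none to *Tctn1*, so its call could not be compared. A 2-fold limit left 5 of 26 in WT tissues, 4 of 26 in KO tissues and 0 of 2 for the tissue by genotype interaction. In KO lungs over time and the lung interaction, every alternative gave 0. The other fits kept the tissue counts within 1.5 times, at 23 to 28 in WT and 25 to 29 in KO hosts with 1 sample left out, and 2 to 3 for the tissue by genotype interaction. Of the differences recomputed under the alternatives (the called members and those with the smallest p in each comparison), none changed sign, and the other named values were not recomputed. The replicate block changed no other count by over 1.5 times, leaving 27 in WT and 26 in KO tissues. Deviations of same-numbered samples correlated at -0.277 to 0.232, all above 0 in WT lungs over time and in KO tissues (0.0365 to 0.16, 4 of 6 best with their own number), and in no comparison was every pair over 0.1 or every sample best with its own number. The cause was not tested for these changes. At this depth *Nphp4* and *B9d2* had few counts.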
